A study of Rattus norvegicus with 9 samples.

Results

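The glutathione, thioredoxin and antioxidant enzymes were taken as every probe set whose platform annotation gives exactly 1 gene symbol that begins with Gsta, Gstm, Gstp, Gstt, Gsto, Gpx, Gcl, Prdx or Txn, or that is Gss, Gsr, Sod1, Sod2, Sod3, Cat or Nqo1. The rule used names and no measured values, and it found 37 genes with 70 probe sets, of 4736 genes with a single-symbol probe set and 8740 probe sets that are not Affymetrix controls. A symbol for cytosolic thioredoxin (Txn1) was not among the members. The tissue was the supraoptic nucleus of the hypothalamus, measured as total RNA on 9 arrays; the rats were male, of the Sprague Dawley strain and 10 to 12 weeks old. The 3 groups were control rats, rats dehydrated for 1 day and rats dehydrated for 3 days, with 3 arrays each that the labels letter a, b and c. The labels do not say whether an array holds RNA of 1 animal or of a pool, so p-values measure the spread between these arrays, which may be technical.

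Glutathione is a tripeptide made by glutamate-cysteine ligase, a catalytic subunit (Gclc) with a modifier subunit (Gclm), and then by glutathione synthetase (Gss). Peroxidases and transferases spend it, and glutathione reductase (Gsr) returns the oxidised form with NADPH. In parallel, thioredoxins hand electrons to the peroxiredoxins and are themselves reduced by NADPH-dependent thioredoxin reductases, while superoxide dismutases and catalase act on superoxide and hydrogen peroxide directly. In brain, glutathione and several of its enzymes are most abundant in glia, and many of these genes carry the antioxidant response element through which the transcription factor NRF2 acts. The magnocellular neurons of the supraoptic nucleus make vasopressin and oxytocin, and water deprivation makes them secrete and synthesise more hormone.

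The promoter windows of 4 genes that the results return to, Gclm, Gss, Txn2 and Txnrd1, are shown as the 250 bases before the annotated start in the RefSeq annotation of GRCr8, 5′ to 3′ on the gene's own strand. Capitals mark matches to TGACNNNGC, the core of the antioxidant response element, or to its variant TGAGNNNGC, searched on both strands; the 2 spellings exclude each other at any 1 position.
Gclm: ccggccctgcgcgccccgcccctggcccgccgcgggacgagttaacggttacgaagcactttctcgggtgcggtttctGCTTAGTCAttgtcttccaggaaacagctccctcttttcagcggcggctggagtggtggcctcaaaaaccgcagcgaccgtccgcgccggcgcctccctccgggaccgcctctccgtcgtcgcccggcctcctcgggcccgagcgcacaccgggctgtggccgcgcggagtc
Gss: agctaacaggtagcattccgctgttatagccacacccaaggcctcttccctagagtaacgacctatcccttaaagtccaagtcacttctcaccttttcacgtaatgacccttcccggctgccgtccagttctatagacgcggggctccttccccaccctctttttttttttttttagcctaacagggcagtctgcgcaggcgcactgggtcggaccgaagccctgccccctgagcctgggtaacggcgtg
Txn2: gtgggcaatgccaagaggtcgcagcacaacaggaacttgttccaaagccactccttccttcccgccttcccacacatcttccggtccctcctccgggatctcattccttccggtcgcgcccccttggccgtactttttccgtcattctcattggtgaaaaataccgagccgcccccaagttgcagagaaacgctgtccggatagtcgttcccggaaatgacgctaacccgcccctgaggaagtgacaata
Txnrd1: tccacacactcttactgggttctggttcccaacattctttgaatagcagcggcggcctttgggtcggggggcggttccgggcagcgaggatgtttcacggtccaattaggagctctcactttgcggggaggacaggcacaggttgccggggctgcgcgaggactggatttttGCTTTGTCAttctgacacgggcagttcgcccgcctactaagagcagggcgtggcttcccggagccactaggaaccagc
They lie at chr2:213031885-213032134 on the plus strand for Gclm and, on the minus strand, at chr3:164538307-164538556 for Gss, chr7:111390941-111391190 for Txn2 and chr7:22755905-22756154 for the first of the pair of windows listed for Txnrd1. In Gclm a TGACNNNGC match on the opposite strand began 172 bases before the start, and in Txnrd1 one began 78 bases before it. No match was found in the windows of Gss and Txn2, nor in the second window listed for Txnrd1. The table of promoters held 31 of the 37 genes, with 35 windows of 300 bases (the 250 bases and 50 after the start). TGACNNNGC was present in 11 of these 35 windows (31.4%) and in 12.1% of all 33469 windows. TGAGNNNGC was present in 2 of the 35 (5.71%) and in 17.2% of all windows, and either spelling in 13 (37.1%) against 27.1%. Among the other members, Gstm5 held a pair of TGACNNNGC matches, and Gpx2, Gsta1, Gsta3, Gstm7, Gstp1, Prdx1, Sod2 and Txnl4b held 1 each in a window. Those of Gsta1 and Txnl4b began 30 and 37 bases after the start. A match describes letters in a window and not binding.

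Signals are MAS5 values, which the authors deposited on a linear scale, and a signal can be compared between arrays for 1 probe set but not between probe sets. Array medians lay between 26.8 and 40.3. Differences are given as log2 of (signal + 4) with the standard error (SE), fitted with limma over all 9 arrays. Probe sets with a mean signal under 23.1 were not tested, which kept 53 of the 70 members' probe sets, of 31 genes. Letter c stood apart in control and at 1 day: oxytocin (Oxt) read 208 and 272 on those 2 arrays against 2331 to 4356 on the other 7, and vasopressin (Avp) read 1765 and 1622 against 2487 to 5678. The beta-actin 3′/5′ signal ratio, a sign of RNA integrity, spanned 0.74 to 1.07 on control arrays, 1.13 to 1.48 on those of 1 day and 0.99 to 1.43 on those of 3 days. For Gapdh that ratio was 0.93 to 1.09, 0.85 to 1.05 and 0.89 to 1.55, with overlap between all 3 groups. For each role, and for Gclm, Gss, Gsta1, Txn2, Txnrd1 and Nqo1, values are also given without these 2 arrays.

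After 1 day and after 3 days of dehydration, no member passed the test. By their brightest probe sets, some of the enzymes gave strong signals on every array, such as the selenoenzyme Gpx4, never under 996, and Sod1, never under 664. Closest to the threshold were 2 enzymes of glutathione synthesis: Gclm read higher at 1 day by 0.97 ± 0.41 (log2 difference ± SE) and at 3 days by 1.05 ± 0.41, and Gss read lower at 1 day, by -0.77 ± 0.30. limma called 0 of the 53 probe sets at an adjusted p under 0.05 in each of the 3 comparisons and in the F test over the 3 groups, and it called 0% of all 5247 tested probe sets in each. All 3 comparisons draw on the same 9 arrays, and the first 2 share the control arrays.

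At an unadjusted p under 0.05, 1 of 53 member probe sets was higher at 1 day (1.89%, background 0.572%) and 1 was lower (1.89%, background 0.438%), Gclm and Gss, where 1 probe set is the smallest count above 0. At 3 days 1 was higher (1.89%, background 1.07%) and 0 were lower (background 0.648%). Between 3 days and 1 day there were 0 in either direction, with backgrounds of 0.877% for higher and 0.953% for lower. With the letter as a block in the fit, the totals of both directions were 4 at 1 day (7.55%, background 2.59%), 4 at 3 days (7.55%, background 5.15%) and 2 between 3 days and 1 day (3.77%, background 5.24%), still with 0 called. At 1 day these were Gclm and Txn2, higher, and Gss and a second Gsr probe set, lower. At 3 days they were Gclm and Txn2, higher, and further probe sets of Gsta1 and Prdx3, lower. Between 3 days and 1 day they were Nqo1 and Txnrd1, both lower.

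A second reading of the same arrays counted members whose 3 arrays in 1 group all lay beyond the 3 of the other. At 1 day 1 member probe set lay above control in this way (1.89%, background 2.63%), that of Gclm, and 2 lay below (3.77%, background 1.58%), those of Gss and of a second probe set of Prdx6. At 3 days 0 lay above (background 4.73%) and 5 lay below (9.43%, background 3.01%): Gss, the brighter probe set of Gstm5, and further probe sets of Gsta1, Prdx3 and Prdx6. Between 3 days and 1 day 1 lay above (1.89%, background 3.05%), a second probe set of Gstm2, and 0 lay below (background 2.67%). The group of 5 at 3 days came from 5 genes, and the gaps were narrow in some: for Gstm5 the highest 3-day signal was 259.5 and the lowest control signal 260.5.

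With 1 probe set for each gene, the brightest, the 31 tested genes had a median log2 difference from control of -0.04 at 1 day, with 14 higher and 17 lower, while the median of all 3189 tested genes was 0.03. At 3 days the median was -0.13, with 11 higher and 20 lower, against 0.01 for all genes. Between 3 days and 1 day it was -0.01, with 15 higher and 16 lower, equal to the -0.01 of all genes. Taken within each letter, the 3-day median was -0.19 for a, 0.08 for b and -0.02 for c, so the sign was not the same in the 3 pairs. With those 2 letter-c arrays left out, the medians were -0.11 with 10 higher and 21 lower at 1 day, -0.09 with 14 higher and 17 lower at 3 days, and 0.11 with 20 higher and 11 lower between 3 days and 1 day.

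**Figure D1:**
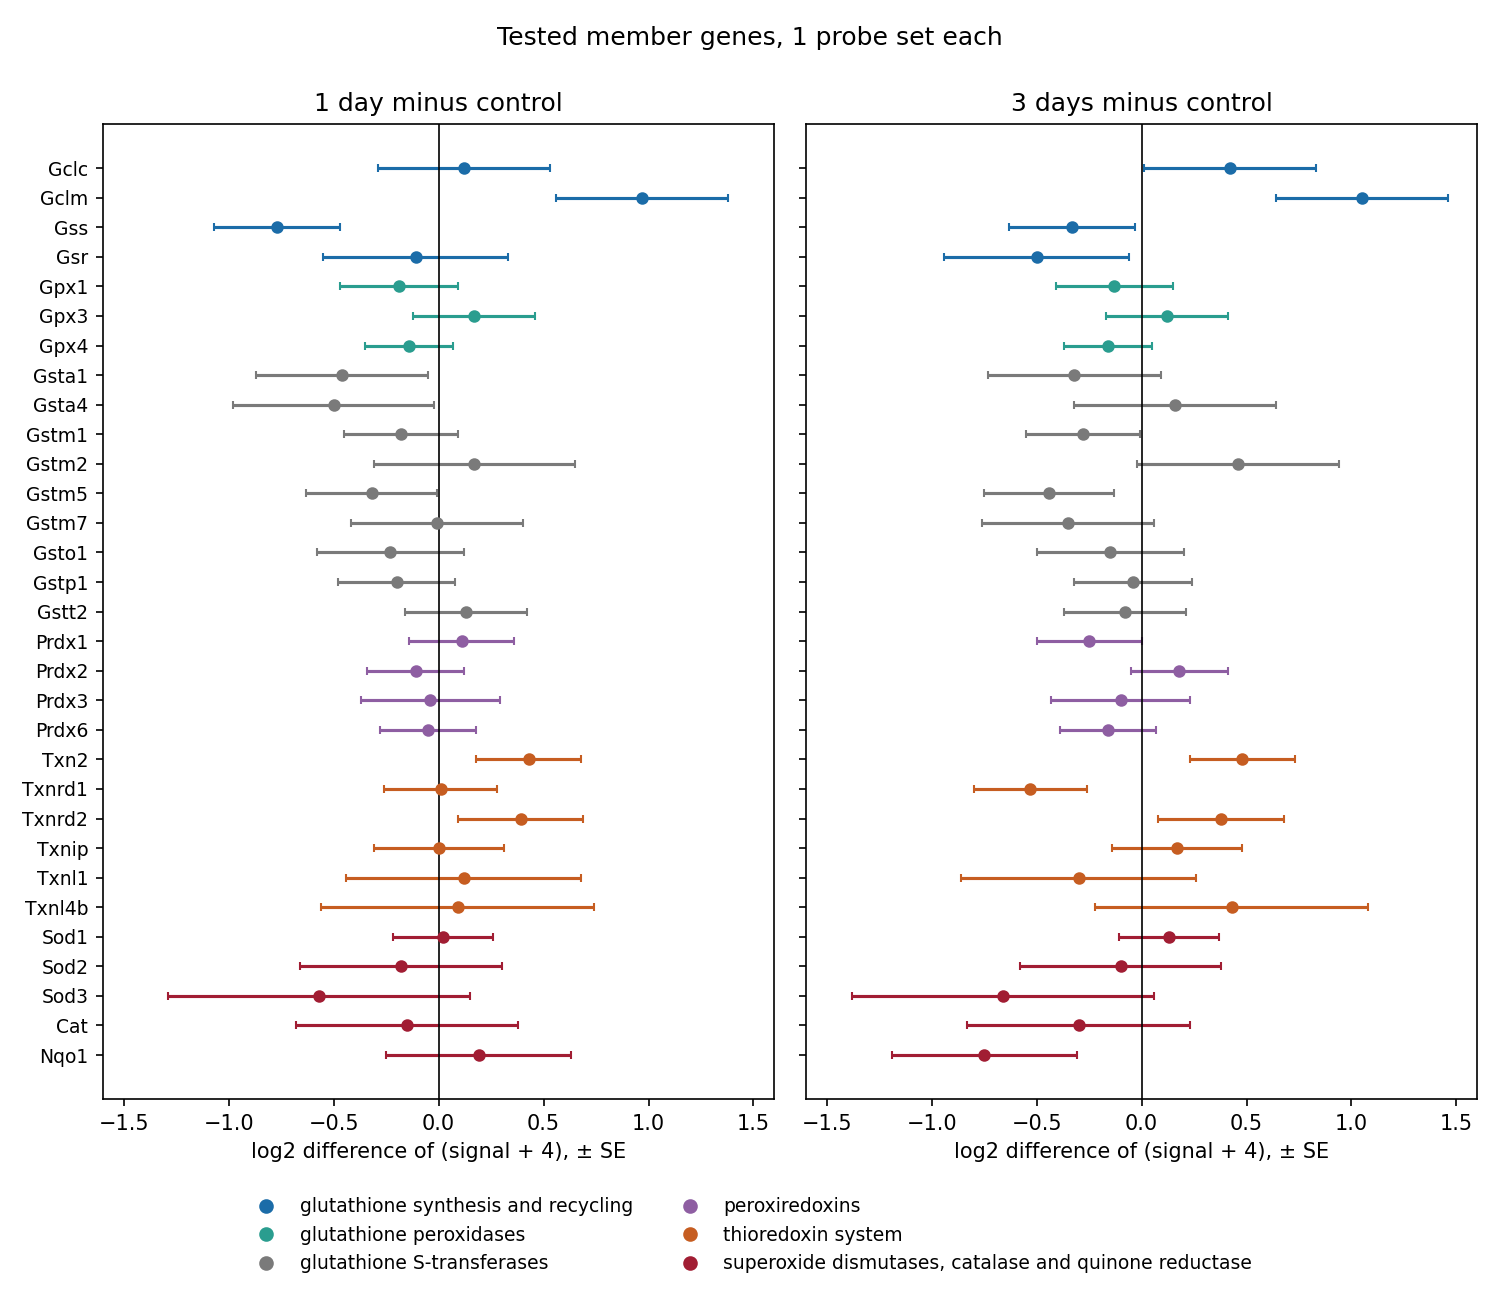
Log2 difference of (signal + 4) from control with its SE (bars) for the 31 tested genes, each by its brightest probe set, at 1 day (left) and 3 days (right), coloured by role. Gclm stands farthest to the right in both panels at 0.97 and 1.05, and most other bars cross 0.

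In the synthesis and recycling of glutathione, 2 of the 4 genes were higher and 2 lower at 1 day and again at 3 days. Without the 2 letter-c arrays 1 was higher and 3 lower at 1 day, and the split at 3 days stayed the same. Gclm, the modifier subunit that raises the activity of the ligase, read 15.8, 22.5 and 39.1 on control arrays a, b and c, 60.8, 41.6 and 53.5 at 1 day, and 50.6, 81.6 and 38.8 at 3 days. All 3 arrays at 1 day lay above all 3 control arrays, whereas at 3 days the array of letter c lay just below the control array of that letter. The group means were 25.8 ± 12.0 (SD, n = 3) in control, 52.0 ± 9.7 at 1 day and 57.0 ± 22.1 at 3 days. The log2 differences had limma's unadjusted p of 0.036 at 1 day and 0.026 at 3 days, with 95% intervals of 0.07 to 1.87 and 0.15 to 1.94, and adjusted p of 1 over all tested probe sets in both. Within the letters a, b and c the difference was 1.71, 0.78 and 0.42 at 1 day and 1.46, 1.69 and -0.01 at 3 days. Between 3 days and 1 day it was 0.08 ± 0.41. Without the 2 letter-c arrays Gclm stood at 1.25 at 1 day and 1.35 at 3 days. The other 2 Gclm probe sets were too dim to test, with mean signals of 20.0 and 15.4, and the dimmer one followed letter b, with 33.2, 38.8 and 33.6 there and at most 13.0 elsewhere. The brighter one had group means of 18.4, 20.0 and 21.5. Within letters a, b and c it differed by -0.57, 0.86 and -0.59 at 1 day and by -0.14, 0.58 and -0.03 at 3 days. It did not repeat the rise of the tested probe set, which itself read under 23.1 on control arrays a and b.

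Gss, the enzyme that adds glycine in the last step of synthesis, read 171, 166 and 166 in control, 148, 80.8 and 75.8 at 1 day, and 130, 109.6 and 164 at 3 days. The control arrays were close together (167.8 ± 2.5, SD, n = 3), all 1-day arrays lay below them (101.4 ± 40.1), and the 3-day array of letter c lay only just below them (134.6 ± 27.6). By limma the difference was -0.77 at 1 day, with an interval of -1.43 to -0.11, an unadjusted p of 0.027 and an adjusted p of 1, and -0.33 ± 0.30 at 3 days (unadjusted p = 0.30). The reading at 1 day was lower in each letter, by -0.20, -1.01 and -1.09. Without the letter-c arrays it was -0.61. The second Gss probe set was below the filter on signal.

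Gclc, the catalytic subunit, read 21.8, 27.8 and 18.1 in control, 19.7, 28.4 and 26.1 at 1 day and 26.1, 43.3 and 26.5 at 3 days. The groups overlapped, and the highest reading of each group was on letter b; the differences were 0.12 ± 0.41 and 0.42 ± 0.41. Gsr, the reductase, read 78.6, 73.7 and 60.3 in control, 68.2, 45.3 and 88.7 at 1 day and 55.3, 86.9 and 23.2 at 3 days. Its groups overlapped as well, with differences of -0.11 ± 0.44 and -0.50 ± 0.44. The 3-day value of Gsr rested on 1 array: the range over left-out arrays and other settings was -0.89 to -0.02, and a second Gsr probe set gave -0.96 ± 0.61 at 1 day and -0.13 ± 0.61 at 3 days.

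**Figure D2:**
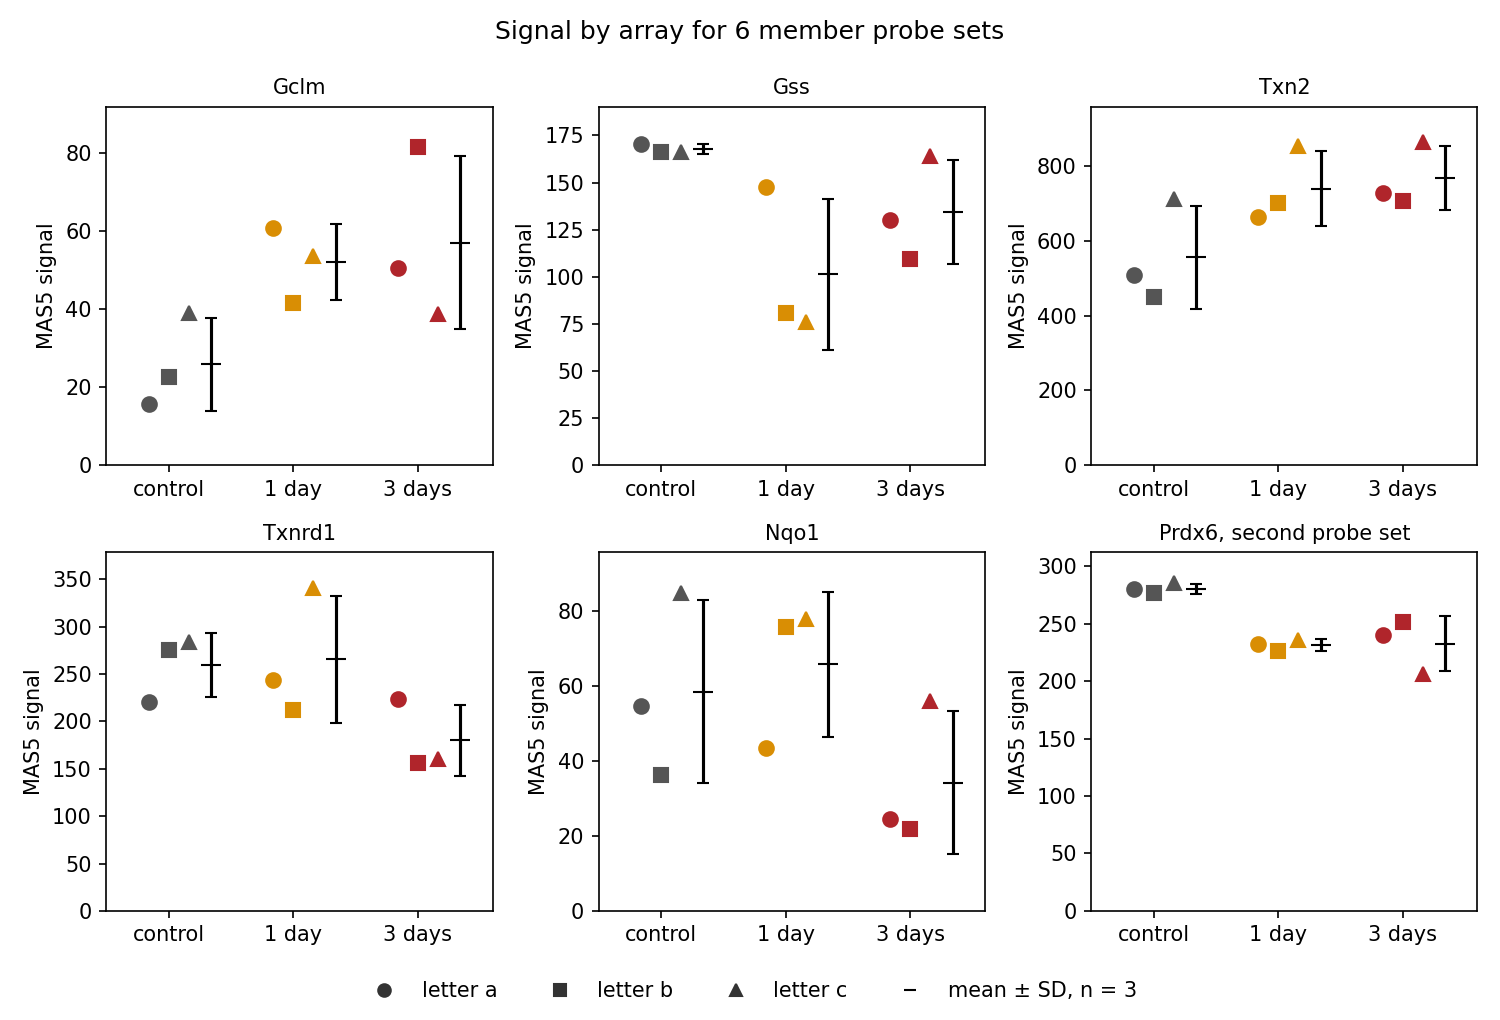
MAS5 signal on each of the 9 arrays for 6 probe sets of Gclm, Gss, Txn2, Txnrd1, Nqo1 and Prdx6, with the symbol giving the replicate letter and the bar giving mean ± SD (n = 3). The 3 Gclm arrays at 1 day, 41.6 to 60.8, sit above the control arrays, and the 3 Gss arrays at 1 day sit below theirs.

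The glutathione peroxidases use glutathione to reduce hydrogen peroxide or lipid peroxides, and 3 of their 7 genes passed the filter. Of these 1 was higher and 2 lower at both times; without the 2 letter-c arrays this held at 1 day, and at 3 days 2 were higher and 1 lower. Gpx1, the cytosolic enzyme, read 292, 389 and 459 in control, 268, 292 and 450 at 1 day, and 304, 327 and 401 at 3 days. Letter c was the highest in every group and the groups overlapped, with differences of -0.19 ± 0.28 and -0.13 ± 0.28. Gpx4, which reduces peroxidised phospholipids in membranes, had the smallest residual SD among the brightest probe sets of the tested genes (0.12) and read 1216, 1330 and 1087 in control, 996, 1200 and 1103 at 1 day, and 1017, 1124 and 1096 at 3 days. Its differences were -0.14 ± 0.21, with an interval of -0.60 to 0.33, and -0.16 ± 0.21, with an interval of -0.63 to 0.30. These bounds leave room for a shift of either sign. Gpx3, the secreted enzyme, lay between 434 and 879 in its brighter probe set with differences of 0.17 ± 0.29 and 0.12 ± 0.29, and its second probe set had the opposite signs, -0.18 ± 0.33 and -0.31 ± 0.33.

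The other 4 peroxidase genes were dim. Gpx2, the gastrointestinal form, lay between 2.5 and 29.1, Gpx5 between 0.3 and 2.4, and Gpx6 between 1.1 and 5.0. Gpx7, an enzyme of the endoplasmic reticulum, read 7.9, 5.8 and 4.5 in control, 8.9, 12.8 and 19.2 at 1 day, and 5.7, 8.9 and 6.0 at 3 days. All 3 of its 1-day arrays lay above control, at signals under the filter, and no test was made.

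Of the glutathione S-transferases, which conjugate glutathione to electrophiles, 9 of 11 genes were tested: 2 were higher and 7 lower at 1 day (median log2 difference -0.20) and 2 higher and 7 lower at 3 days (median -0.15), with 0 at an unadjusted p under 0.05 by limma. The medians within letters a, b and c were -0.14, -0.38 and 0.03 at 1 day and -0.17, 0.04 and 0.01 at 3 days. Thus letter c did not have the direction of the whole at 1 day, and neither b nor c had it at 3 days. With the 2 letter-c arrays left out the split stayed at 2 higher and 7 lower at 1 day (median -0.35) and was 3 higher and 6 lower at 3 days (median -0.09). After quantile normalization it was 3 higher and 6 lower at 1 day. Members of the alpha and mu classes are close in sequence and several of these probe sets can detect more than 1 transcript, so their assignment to a single gene is uncertain.

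Gstp1, the pi-class enzyme, read 866, 894 and 1036 in control, 692, 688 and 1106 at 1 day, and 668, 1048 and 1043 at 3 days, with overlapping groups and differences of -0.20 ± 0.28 and -0.04 ± 0.28. Gstm1, of the mu class, read 848, 742 and 778 in control, 768, 487 and 903 at 1 day, and 528, 760.3 and 680.3 at 3 days, again with overlap, and differences of -0.18 ± 0.27 and -0.28 ± 0.27. Gsta1, of the alpha class, read 187, 222 and 455 in control, 189.8, 122 and 306 at 1 day, and 166, 214 and 270.2 at 3 days. Letter c was the highest for Gsta1 in each group, and the differences were -0.46 ± 0.41 and -0.32 ± 0.41. Leaving out control array c, at 455, made them -0.08 and 0.06. Without both letter-c arrays they were -0.41 and 0.06.

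A second Gsta1 probe set was one of the 5 with no overlap at 3 days. It read 206, 279.6 and 271 in control, 153, 277 and 216 at 1 day, and 168, 195 and 164 at 3 days, and its 3-day difference was -0.50 ± 0.27 (limma, unadjusted p = 0.091, adjusted p = 1). The 3 Gsta1 probe sets had the same sign at both times, from -0.46 to -0.25 at 1 day and from -0.50 to -0.30 at 3 days.

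Gstm5, a mu-class enzyme, read 278, 260.5 and 353 in control, 161, 254 and 315 at 1 day, and 242, 259.5 and 159.6 at 3 days. The 3-day arrays lay below control by a small margin on letter b, the 1-day arrays overlapped control, and the differences were -0.32 ± 0.31 and -0.44 ± 0.31. Its second probe set gave -0.38 ± 0.25 and -0.39 ± 0.25 and was lower in each of the 3 letters at both times. Gstm2 went the other way, with differences of 0.17 ± 0.48 and 0.46 ± 0.48. Its second probe set, at 49.8, 49.1 and 41.7 at 1 day and 55.4, 52.5 and 57.8 at 3 days, did not overlap between the dehydrated groups, although control (67.1, 36.7 and 34.2) spanned both. The difference between those groups was 0.22 ± 0.33.

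Gsta4, which acts on the lipid peroxidation product 4-hydroxynonenal, lay between 26 and 125. At 1 day it differed by -0.50 ± 0.48 with the letters at 0.25, -0.84 and -0.89, and it stood at 0.03 when the 1-day array of letter c was left out. At 3 days it differed by 0.16 ± 0.48. Gstm7 differed by -0.01 ± 0.41 and -0.35 ± 0.41, Gsto1, the omega-class enzyme, by -0.23 ± 0.35 and -0.15 ± 0.35, and Gstt2, of the theta class, by 0.13 ± 0.29 and -0.08 ± 0.29. Each of these overlapped between groups. The untested pair was dim: Gsta3 lay between 3.5 and 23.0 in its brightest probe set, and Gstt1 between 6.9 and 18.6 on 8 arrays and at 81.3 on control array b.

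The peroxiredoxins reduce peroxides with electrons from thioredoxin or, for Prdx6, from glutathione, and all 4 genes present were tested, with 1 higher and 3 lower at each time (medians -0.04 and -0.13). Without the 2 letter-c arrays the split was 0 higher and 4 lower at 1 day and 2 higher and 2 lower at 3 days (medians -0.06 and -0.02). Prdx1, a cytosolic form, read 189, 257 and 218 in control, 248, 193 and 277 at 1 day, and 159, 218 and 181 at 3 days. Groups overlapped, the differences were 0.11 ± 0.25 and -0.25 ± 0.25, and at 3 days all 3 letters were lower, by -0.24, -0.24 and -0.26. Prdx2, which is abundant in neurons and red cells, read 918, 1036 and 938 in control, 1030.4, 709 and 961 at 1 day, and 982, 1085 and 1220 at 3 days, with differences of -0.11 ± 0.23 and 0.18 ± 0.23 and overlapping groups.

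Prdx3, the mitochondrial form, read 251, 198 and 349 in control, 259.7, 174 and 356 at 1 day, and 211, 213 and 313 at 3 days. Letter c was the highest in every group, and the differences of -0.04 ± 0.33 and -0.10 ± 0.33 were far inside the spread. A second Prdx3 probe set read 150.5, 168 and 174 in control, 113, 97.0 and 294 at 1 day, and 93.1, 71.0 and 137 at 3 days. Its 3-day arrays all lay below control, with a difference of -0.73 ± 0.40 (limma, unadjusted p = 0.098, adjusted p = 1) where the brighter probe set of the same gene gave -0.10.

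Prdx6, which also has phospholipase activity, had 3 tested probe sets. The brightest read 686, 779 and 738 in control, 645, 777 and 709.5 at 1 day, and 599, 821 and 577 at 3 days, with differences of -0.05 ± 0.23 and -0.16 ± 0.23. The second read 279.8, 276 and 285 in control, 232, 226 and 236 at 1 day, and 240.5, 251 and 206 at 3 days, and was lower on all 6 dehydrated arrays than on the 3 control arrays. That difference was the same at both times, -0.27 ± 0.21, with an adjusted p of 1 by limma, and the third probe set gave 0.04 ± 0.22 and 0.10 ± 0.22. Thus the 3 probe sets of Prdx6 did not share a sign.

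**Figure D3:**
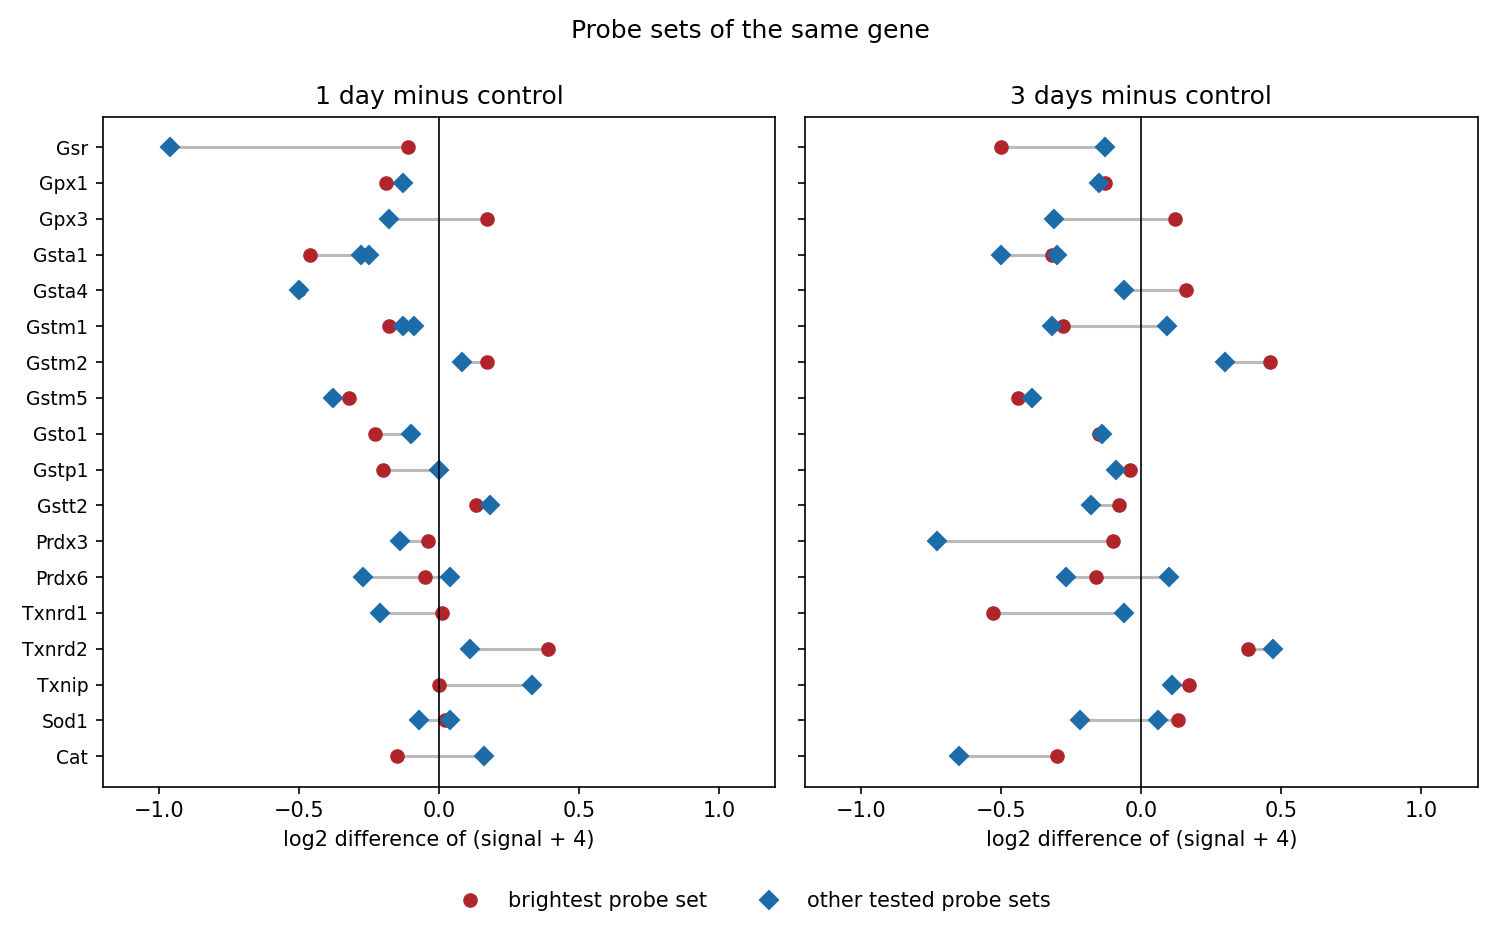
Log2 difference of (signal + 4) from control at 1 day (left) and 3 days (right) for the 18 genes with more than 1 tested probe set, with the brightest probe set as a circle and the others as diamonds. Grey lines join probe sets of 1 gene; they reach or cross 0 in 6 genes at 1 day and in 5 at 3 days.

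For the 18 genes with more than 1 tested probe set, all probe sets had the same sign in 12 at 1 day, in 13 at 3 days and in 7 between 3 days and 1 day. All probe sets of Gpx1, Gsr, Gsta1, Gstm5, Gsto1 and Prdx3 were lower at both times, and all of Gstm2 and Txnrd2 were higher at both. Those of Txnip were counted as higher at both, although its brighter probe set stood at 0.00 at 1 day. Those of Gstt2 were higher at 1 day and lower at 3 days. Cat, Gpx3, Gsta4, Gstm1, Gstp1, Prdx6, Sod1 and Txnrd1 had mixed signs at 1 or both times.

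In the thioredoxin system all 6 tested genes had a positive difference at 1 day (median 0.10), with Txnip at 0.00, and 4 were higher and 2 lower at 3 days (median 0.28). With median centring of the arrays the 1-day split was 4 higher and 2 lower, and both with quantile normalization and without the 2 letter-c arrays it was 5 higher and 1 lower. Txn2, the mitochondrial thioredoxin, read 507, 448 and 712 in control, 663, 701 and 852 at 1 day, and 729, 707 and 865 at 3 days. In each letter the dehydrated array was above the control array, by 0.38, 0.64 and 0.26 at 1 day and by 0.52, 0.65 and 0.28 at 3 days. Control array c, at 712, still lay within the range of the dehydrated arrays, so the groups overlapped. The means were 555.7 ± 138.2 (SD, n = 3), 738.6 ± 100.1 and 766.7 ± 85.4, and the differences 0.43 ± 0.25 and 0.48 ± 0.25 had limma's unadjusted p of 0.11 and 0.075. With the letter as a block these were 0.035 and 0.021, and the adjusted p were at least 0.873. Without the 2 letter-c arrays the differences were 0.51 and 0.67.

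Txnrd1, the cytosolic thioredoxin reductase, read 221, 275 and 283 in control, 244, 212 and 340.3 at 1 day, and 223, 156 and 159.9 at 3 days. Letters b and c were low at 3 days and letter a was level with its control, so the groups overlapped. The difference was 0.01 ± 0.27 at 1 day and -0.53 ± 0.27 at 3 days (limma, unadjusted p = 0.073, interval -1.12 to 0.06), and -0.54 ± 0.27 between 3 days and 1 day. The second Txnrd1 probe set gave -0.21 ± 0.27 at 1 day, -0.06 ± 0.27 at 3 days and 0.15 ± 0.27 between 3 days and 1 day. With the 2 letter-c arrays left out, the brighter probe set stood at -0.11 at 1 day, -0.47 at 3 days and -0.35 between 3 days and 1 day. Txnrd2, the mitochondrial reductase, read 90.2, 45.5 and 68.1 in control, 92.1, 92.8 and 78.1 at 1 day, and 87.1, 100.3 and 74.6 at 3 days. Its differences of 0.39 ± 0.30 and 0.38 ± 0.30 came mostly from letter b, where control was low, and the groups overlapped.

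Txnip, the inhibitor of thioredoxin that also limits glucose uptake, read 57.9, 76.5 and 61.5 in control, 58.6, 77.6 and 59.9 at 1 day, and 59.2, 62.7 and 105.4 at 3 days. Control and 1 day were nearly the same array by array (0.02, 0.02 and -0.04), and at 3 days the array of letter c stood above the others, with a difference of 0.17 ± 0.31. Txnl1, a thioredoxin-like protein associated with the proteasome, read 67.6, 179 and 90.5 in control, 65.2, 191 and 114 at 1 day, and 58.4, 196 and 48.8 at 3 days. Its letter-b arrays were apart from all others and its groups had almost the same range, with differences of 0.12 ± 0.56 and -0.30 ± 0.56. Txnl4b, a thioredoxin-like splicing protein, lay between 8.0 and 56.1, with differences of 0.09 ± 0.65 and 0.43 ± 0.65.

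Of the superoxide dismutases, catalase and quinone reductase, 2 of 5 genes were higher and 3 lower at 1 day (median -0.15), and 1 was higher and 4 lower at 3 days (median -0.30). Without the 2 letter-c arrays there were 1 higher and 4 lower at both times, with medians of -0.38 and -0.24, and median centring also gave 1 higher and 4 lower at 1 day. Sod1, the cytosolic copper-zinc enzyme, read 982, 768 and 762 in control, 979, 664 and 918 at 1 day, and 869, 847 and 1020 at 3 days. The groups overlapped, with differences of 0.02 ± 0.24 and 0.13 ± 0.24 and intervals of -0.51 to 0.55 and -0.40 to 0.66. A second Sod1 probe set gave -0.07 ± 0.25 and -0.22 ± 0.25. The third, which read as low as 508, gave 0.04 ± 0.33 and 0.06 ± 0.33. Sod2, the mitochondrial manganese enzyme, read 65.9, 152 and 83.8 in control, 45.3, 91.7 and 134 at 1 day, and 51.0, 141 and 94.1 at 3 days. Letter a was the lowest in every group, and the differences were -0.18 ± 0.48 and -0.10 ± 0.48. Sod3, the extracellular enzyme, read 89.1, 18.4 and 106 in control, 18.1, 27.8 and 95.6 at 1 day, and 57.9, 16.6 and 41.4 at 3 days. It was the most variable among the brightest probe sets of the tested genes, with a residual SD of 1.09, and its differences of -0.57 ± 0.72 and -0.66 ± 0.72 say little about direction.

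Cat, the catalase of peroxisomes, read 51.5, 70.2 and 30.9 in control, 35.3, 57.7 and 39.3 at 1 day, and 23.6, 99.7 and 23.1 at 3 days. The 3-day group held both the highest reading, on letter b, and the lowest, and the difference of -0.30 ± 0.53 became -0.94 when the 3-day array of letter b was left out. Nqo1, a quinone reductase that is a standard NRF2 target, read 54.7, 36.3 and 84.8 in control, 43.6, 75.9 and 78.1 at 1 day, and 24.5, 22.0 and 56.2 at 3 days. In each letter the 3-day array was below control, by -1.04, -0.63 and -0.56, and below 1 day, by -0.74, -1.62 and -0.45, although the groups overlapped. The means were 58.6 ± 24.5 (SD, n = 3), 65.9 ± 19.3 and 34.2 ± 19.1. By limma the difference was 0.19 ± 0.44 at 1 day, -0.75 ± 0.44 at 3 days (unadjusted p = 0.12) and -0.94 ± 0.44 between 3 days and 1 day (unadjusted p = 0.058, adjusted p = 0.998). Without the 2 letter-c arrays these were 0.34, -0.46 and -0.80. The second Nqo1 probe set was under the filter, with 92.6 on the 1-day array of letter b and 1.4 to 20.5 on the others.

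Several members had readings that followed the letter of the array. Of the 31 genes, 4 had all 3 letter-b arrays above the other 6 arrays (Cat, Gclc, Prdx6 and Txnl1), 4 had all 3 letter-c arrays above (Gpx1, Gsta1, Prdx3 and Txnl4b), and 2 had all 3 letter-a arrays below (Sod2 and Txnip). Over all tested probe sets the shares were 7.76% above and 4.14% below for letter b, 5.58% above and 5.79% below for c, and 8.02% above and 4.36% below for a. Other members were apart on no letter. The median residual SD of the tested member genes was 0.35, and 0.33 with the letter as a block, while for all tested probe sets it was 0.48 and 0.36. The 1-day array of letter c read above the gene's own mean over the arrays in 24 of the 31 genes, with a median deviation of 0.33, the highest of the 9 arrays, where the median over all tested probe sets was 0.02.

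**Figure D4:**
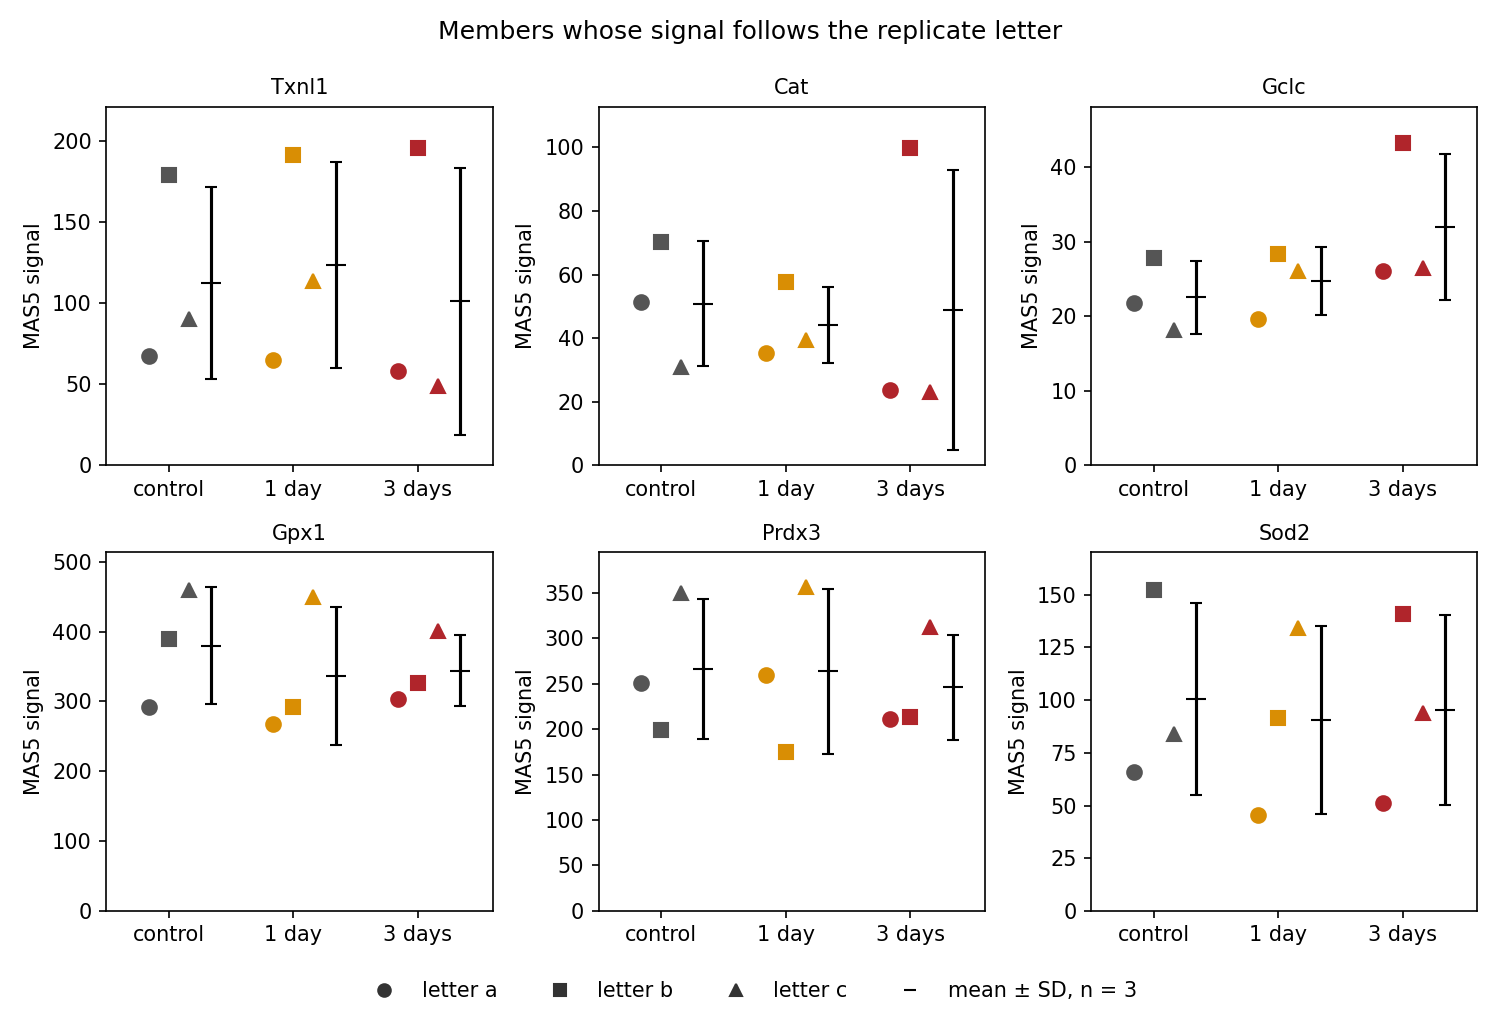
MAS5 signal on each of the 9 arrays for Txnl1, Cat, Gclc, Gpx1, Prdx3 and Sod2, with the symbol giving the replicate letter and the bar giving mean ± SD (n = 3). Squares (letter b) are the highest in the panels of Txnl1, Cat and Gclc in each group, triangles (letter c) in those of Gpx1 and Prdx3, and circles (letter a) are the lowest for Sod2.

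Among related genes outside the rule, 118 were listed, 58 had a probe set with a single symbol and 47 were tested. limma called 0 of them in each comparison. At 1 day 22 were higher and 25 lower, with 1 at an unadjusted p under 0.05, ceruloplasmin (Cp), the plasma ferroxidase, at 1.26 ± 0.55 (limma, unadjusted p = 0.043, adjusted p = 1). Control for Cp was spread wide (25.5, 3.8 and 7.9) against 25.7, 38.5 and 25.9 at 1 day. The mean signal of Cp over all arrays, 23.6, was just above the filter of 23.1. Its group means were 12.4 in control, 30 at 1 day and 28.2 at 3 days. Cp thus passed the filter through its dehydrated arrays, while control arrays b and c read far below it. For that reason its p-value cannot be read as a difference. Of the related genes, 20 were higher and 27 lower at 3 days. Between 3 days and 1 day 23 were higher and 24 lower. Both comparisons had 0 at an unadjusted p under 0.05.

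Genes that supply NADPH, the electron donor for both reductases, were all lower at 3 days than in control, 6 of 6 with a median of -0.30, and 6 of 6 were lower than at 1 day with a median of -0.34; 0 passed the test. Quantile normalization made the first split 1 higher and 5 lower, and leaving out the 2 letter-c arrays made it 2 higher and 4 lower. Without those arrays the difference from 1 day kept 6 of 6 lower, with a median of -0.19. The medians at 3 days against control within letters a, b and c were 0.19, -0.62 and -0.82. Taldo1, transaldolase of the pentose phosphate pathway, differed by -0.83 ± 0.43 and Me1, the NADP-dependent malic enzyme, by -0.75 ± 0.46 at 3 days.

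Hmox1, the inducible heme oxygenase and an NRF2 target, differed by 0.24 ± 0.35 at 1 day and -0.35 ± 0.35 at 3 days, and its constitutive relative Hmox2 by 0.37 ± 0.34 and 0.29 ± 0.34. Mt3, the brain metallothionein, differed by 0.03 ± 0.31 and 0.49 ± 0.31. Selenop, the carrier of selenium to peroxidases and reductases, differed by -0.03 ± 0.48 and -0.73 ± 0.48. Nfe2l2, which encodes NRF2 itself, had a mean signal of 21.1 and was under the filter.

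Summed signals of cell type markers lay apart between groups in some lists and overlapped in others. By limma 0 of the listed genes were called in any comparison. The summed signal of 5 of 8 listed erythroid genes spanned 2736 to 3086 on control arrays, 3422 to 4690 on 1-day arrays and 1687 to 2288 on 3-day arrays, so the 3 groups did not overlap. Most of that sum is the signal of Hbb and Hbb-b1. Gene by gene 5 of 5 were higher at 1 day and 4 of 5 lower at 3 days, with Slc4a1 at 0.23. Red cells are rich in Prdx2, Cat, Gpx1 and Sod1. By their brightest probe sets these members differed from control by -0.11, -0.15, -0.19 and 0.02 at 1 day. At 3 days the differences were 0.18, -0.30, -0.13 and 0.13. The sum of 12 of 13 astrocyte genes was 11032 to 17960, 11449 to 18289 and 17033 to 23817, and that of 9 of 11 magnocellular genes 4393 to 7862, 4320 to 9215 and 9946 to 12766. Avp and Oxt make up most of the magnocellular sum on the 7 arrays other than those 2 of letter c. At 3 days 5 of the 9 genes were higher and 4 lower, Chgb at -0.57 among them, and 9 of 12 astrocyte genes were higher and 3 lower. For 9 of 12 microglial genes it was 402 to 552, 534 to 685 and 492 to 614, and for 7 of 11 oligodendrocyte genes 5236 to 8149, 4379 to 8552 and 3857 to 8455. In none of these 5 lists was a measured marker at 0 on an array. Their part in the differences of the antioxidant enzymes was not tested, and in a tissue sample fewer cells of a type and less RNA per cell cannot be told apart.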

How the data were processed

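The values are MAS5 intensities as deposited by the authors (linear scale, trimmed array means of 100.1 as read from the values); the submitters' processing notes name MAS5 without a version. Groups and letters come from titles. From log2(signal + 4), where 4 is the rounded 10th percentile, limma 3.58.1 (R 4.3.3) fitted 3 group means to the 5247 probe sets with a mean signal of at least 23.1 (40th percentile), with an intensity trend, two-sided tests and Benjamini-Hochberg adjustment; it was tested on simulated data. A gene is given by its brightest probe set. Values by array are given at an unadjusted p under 0.05, without overlap, or for a list of enzymes; Txn2, Txnrd2, Txnl1 and Gpx7 were added after their values were seen. Members, lists and tests were chosen with earlier results of these data known. All 70 probe sets matched RefSeq (GRCr8) by gene ID, and 3 with several symbols were left out. After subtraction of group means, arrays of the same letter correlated (9 pairs, r 0.17 to 0.47). For 18 pairs of different letters r was -0.33 to 0.12. The main fit left the letter out, because the labels do not say what it marks. SEs, intervals and p-values are therefore unpaired unless a block is named. Fitting the letter as a block lowers the residual degrees of freedom from 6 to 4. Alternatives were other pseudocounts, filters, scalings, variance priors, arrays and probe sets, and the letter as a block. Figures used Python 3.11.15 and matplotlib 3.10.9.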

Additional observations from a re-analysis of the deposited data

How the results depend on the processing

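The count of members called by limma was 0 in each of the 3 comparisons and in the F test, and stayed at 0 under the 20 alternatives of each comparison and the 19 of the F test. The replicate block, in which the letters pair the arrays, also gave 0 calls. The median log2 difference of the tested genes ranged over 21 alternatives from -0.113 to 0.048 at 1 day, from -0.193 to -0.005 at 3 days and from -0.068 to 0.128 between 3 days and 1 day. Of 1842 recomputed differences of single genes, 101 had another sign than the reported one; in all of these but Gsta4 at 1 day both values lay within 1 SE of 0. In 19 the value moved by at least its SE. Gsta4 at 1 day ranged from -1.02 to 0.03 when arrays were left out in turn, and Gclm from 0.71 to 1.27 at 1 day and 0.77 to 1.35 at 3 days. The count of member probe sets at an unadjusted p under 0.05 ranged from 0 to 4 in each comparison. The number of arrays limits the precision: the median SE of a member's difference was 0.31. The causes were not tested.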

Other observations

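A pair of probe sets that the annotation assigns to both Gsta2 and Gsta5, alpha-class transferases, lay outside the rule. One read 13.3, 30.8 and 1.2 in control, 14.2, 7.7 and 3.0 at 1 day, and 5.2, 4.2 and 5.8 at 3 days. The other read 10.7, 54.3 and 0.7 in control, 26.8, 36.0 and 28.5 at 1 day, and 18.7, 9.1 and 24.5 at 3 days. In both, control array b was the highest of the 9 arrays and control array c the lowest.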
